A study of Rattus norvegicus with 6 samples.

Results

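The insulin, mTOR and AMPK signalling genes are 36 genes that run from the insulin receptor through PI3K and AKT to FOXO, TSC and mTOR, with translation control and the AMP-activated kinase. They were followed on 6 arrays of fat from the mesentery, the folds that hold the gut and its vessels, of newborn wildtype Sprague-Dawley rats. In the deficient group (3 arrays) the dams ate a vitamin D deficient diet (0 IU/kg). In the adequate group (3 arrays) they ate an adequate one (1000 IU/kg). A member is a probe set that the platform annotation maps to a single symbol of the list. There were 71 such probe sets among 31042 on the array without its controls, and they covered 34 of the 36 genes. Pik3cb and Rps6kb2 are not analysed here. A probe set was tested where its mean log2 signal over the 6 arrays reached 6.46, the 40th percentile, and 50 of the 71 did, covering 33 genes. Stk11, the gene of the AMPK-activating kinase LKB1, had 3 probe sets and none was tested.

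Insulin binding makes its receptor phosphorylate docking proteins, which recruit PI3K and, through adaptors, Ras. The lipid made by PI3K brings AKT to the membrane, where PDK1 activates it. AKT keeps FOXO factors out of the nucleus, releases glucose transporter vesicles and inhibits the TSC complex, so that Rheb can switch on mTOR complex 1 and with it protein synthesis. AMPK, switched on when energy is low, acts against mTOR complex 1. In fat cells the pathway drives glucose uptake and lipid storage and restrains lipolysis. Most of its control runs through phosphorylation, which an array does not measure.

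The comparison asks whether the mRNA of these genes differs between pups of the deficient and of the adequate dams. None of the 50 tested member probe sets passed limma's test adjusted over all 18625 tested probe sets, and the smallest adjusted p among them was 0.344. The background was 0% (0 of 18625). With each gene read from its brightest tested probe set, 16 of the 33 genes had a higher mean and 17 a lower mean in the deficient group, and after quantile normalization Tbc1d4 and Mlst8 crossed to the higher side. Their median log2 change, deficient minus adequate, was -0.02, and that of all 10591 tested genes was -0.09. At limma's unadjusted p under 0.05, 5 member probe sets were lower (10.0%) and 0 higher, where 8.18% of all tested probe sets were lower and 6.03% higher. By gene, 3 members were lower at that threshold, Akt1, Grb2 and Tsc2, and 0 higher. Leaving out any single array except deficient array 3 took the 3 to 0. Among all tested genes 10.1% were lower and 4.75% higher, so the share of lower members, 9.09%, was near the background. The log2 changes of the member genes lay between -0.50 and 0.79, with standard errors (SE) of 0.15 to 0.50. Whether a group's arrays come from separate pups or litters is not in the labels. The p-values therefore measure the spread between arrays, which may be technical, and the small number of arrays limits precision. In bulk tissue such as this, fewer cells of a type and less RNA per cell cannot be told apart.

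The deficient group was not uniform: its arrays 1 and 2 differed from its array 3 and from the adequate arrays over the whole table. The first principal component of all tested probe sets, with 49.5% of the variance, placed deficient arrays 1 and 2 at 43.1 and 46.4, against -20.3 on deficient array 3 and -26.2 to -18.5 on the adequate arrays. Spiked-in hybridisation controls were at 7.11 and 9.50 times the adequate mean there, and at 0.936 times on the remaining deficient array. Beta-actin's 3' over 5' signal ratio, which goes up as RNA degrades or labelling stops short, was 7.56, 6.80 and 2.35 on the deficient arrays and 2.39, 4.81 and 2.58 on the adequate arrays (exact permutation test of log2 ratios, two-sided, p 0.4, where 0.1 is the smallest possible). Both deficient arrays 1 and 2 lay outside the adequate range on the same side for 16 of the 33 member genes, 48.5%, and for 54.4% of all tested genes. Deficient array 3 lay inside the adequate range for 7 of these 16, or 21.2% of members, against 22.6% of all tested genes, so the split is near the background. Without deficient array 3, 3614 probe sets passed the adjusted threshold, against 0 with it.

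**Figure D1:**
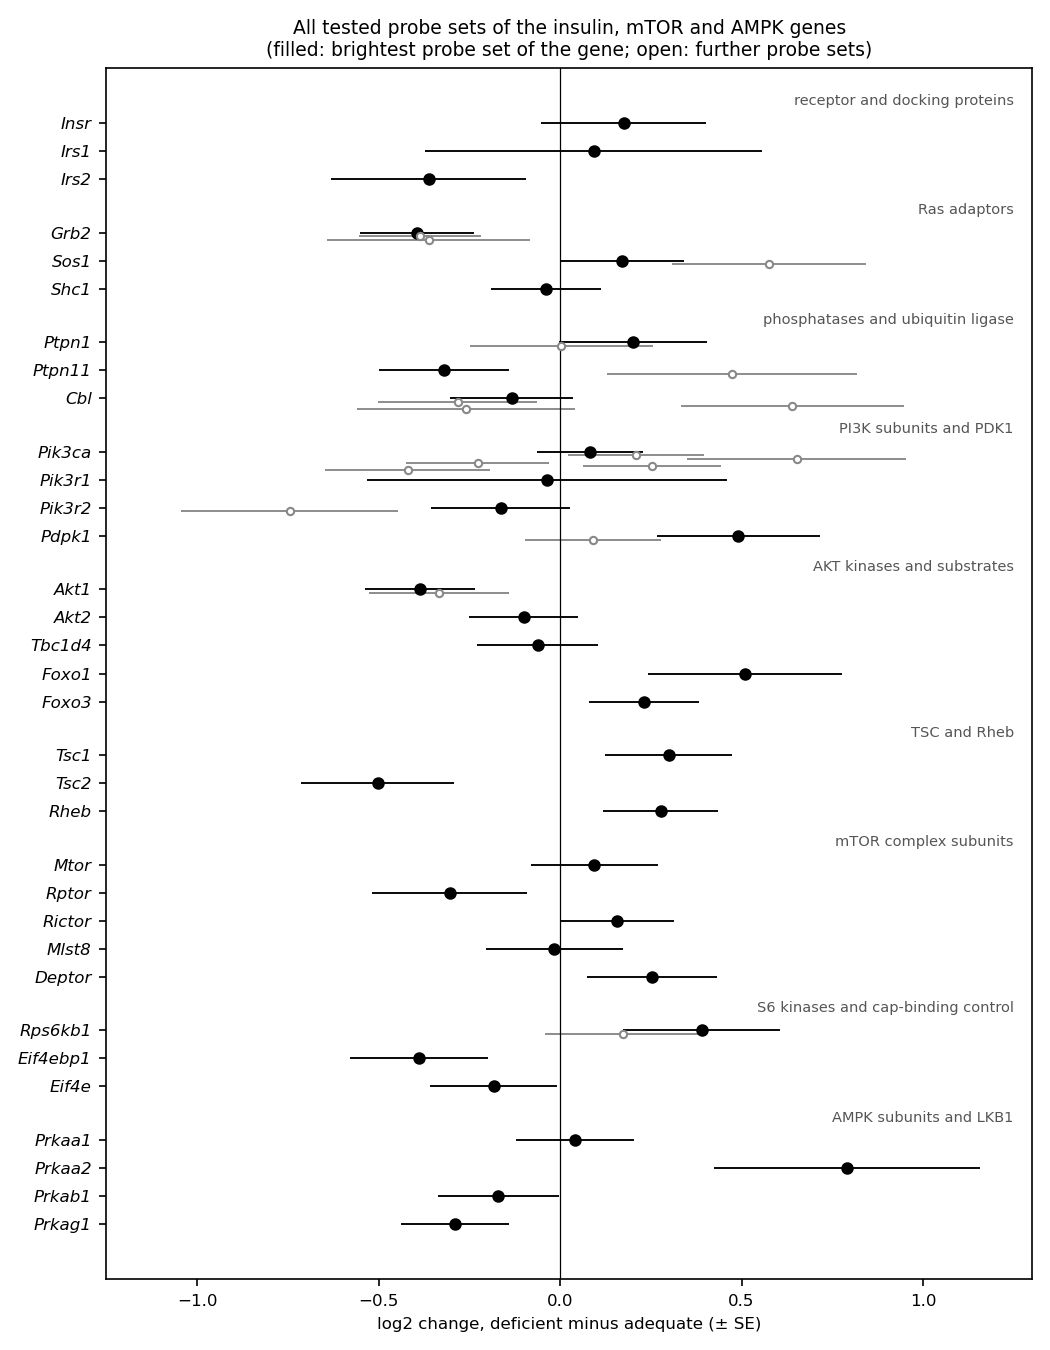
Log2 change (deficient minus adequate, x axis) with its SE for each of the 50 tested member probe sets, by gene and role (y axis). The filled points, which are the brightest probe set of each gene, lie on both sides of 0, 16 to the right and 17 to the left.

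Insr, the insulin receptor gene, read 8.55, 8.32 and 8.30 in log2 signal on the deficient arrays, against 8.22, 8.58 and 7.84 on the adequate arrays. The groups overlapped, and the log2 change was 0.18 ± 0.23 (SE, adjusted p 0.709). A further Insr probe set, too dim to test at a mean of 5.33, was higher on each deficient array than on any adequate array. The docking protein genes, which carry the signal from the receptor to PI3K, varied more. Irs1 had 7.72, 7.41 and 6.31 on the deficient arrays, against 6.73, 6.39 and 8.04 on the adequate arrays. Deficient array 3 and adequate array 3 lay at opposite ends, and the spread within each group (SD 0.74 and 0.87, n = 3 each) was larger than the difference of 0.09. Irs2, which FOXO factors induce in liver, had 8.52, 9.03 and 9.66 on the deficient arrays and 9.59, 9.19 and 9.52 on the adequate arrays. Its low values were on deficient arrays 1 and 2, while deficient array 3 was the highest of all 6. The log2 change of Irs2 was -0.36 ± 0.27 (SE, adjusted p 0.504), -0.09 without deficient array 1 and 0.23 with deficient array 3 alone.

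A few promoters of the member genes are shown as examples of those that hold the core motif of FOXO, the pathway's own transcription factor, or a hexamer bound by nuclear receptors, among them the vitamin D receptor. RefSeq promoters of the GRCr8 assembly, 250 bases before to 50 after the gene start, were matched by symbol for 29 of the 36 genes. The FOXO core GTAAACA, searched on both strands, was in 4 of them (13.8%): Insr, Pik3ca, Tsc1 and Stk11. It was in 2.51% of the 9861 matched promoters of tested genes. None of the 13 matched members with a lower mean held it, against 3 of the 14 with a higher mean. Those 3, Insr, Pik3ca and Tsc1, did not pass even limma's unadjusted p under 0.05. The same split was not counted over all tested genes, so no link between the motif and direction is drawn. The hexamer AGGTCA, on both strands, was in 2 of the 29 (6.90%), Akt1 and Ptpn1, and in 12.2% of the promoters of tested genes. A GC box, GGGCGG on either strand, was in 19 (65.5%), against 62.1%. In the Stk11 promoter the FOXO core overlaps a GC box. The window follows the annotated gene start, which in Pik3ca is the start codon ATG and in Akt1 lies just before it. Whether these 2 windows are promoters at a transcription start was not tested. A match describes letters in this window only. Below, FOXO cores (first 3 sequences) and hexamers (last 2) are in capitals, each promoter 5′ to 3′ on its gene's strand:
Insr, chr12:6128754-6129053, minus strand: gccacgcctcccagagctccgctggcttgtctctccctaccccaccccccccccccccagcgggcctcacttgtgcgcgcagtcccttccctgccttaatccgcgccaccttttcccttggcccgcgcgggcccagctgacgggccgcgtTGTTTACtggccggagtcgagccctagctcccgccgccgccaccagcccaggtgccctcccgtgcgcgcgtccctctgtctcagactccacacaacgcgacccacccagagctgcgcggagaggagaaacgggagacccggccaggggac
Pik3ca, chr2:117147049-117147348, plus strand: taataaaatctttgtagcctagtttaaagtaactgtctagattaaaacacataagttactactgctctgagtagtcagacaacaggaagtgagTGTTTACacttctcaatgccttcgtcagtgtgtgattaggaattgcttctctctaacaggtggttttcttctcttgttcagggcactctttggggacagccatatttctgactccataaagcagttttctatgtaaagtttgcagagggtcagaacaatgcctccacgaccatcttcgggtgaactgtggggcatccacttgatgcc
Tsc1, chr3:32367447-32367746, plus strand: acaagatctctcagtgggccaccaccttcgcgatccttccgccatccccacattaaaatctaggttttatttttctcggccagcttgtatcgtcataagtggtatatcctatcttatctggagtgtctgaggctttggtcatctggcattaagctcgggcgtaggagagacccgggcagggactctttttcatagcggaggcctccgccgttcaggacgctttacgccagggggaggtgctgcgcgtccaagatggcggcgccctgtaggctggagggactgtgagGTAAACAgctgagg
Akt1, chr6:137552561-137552860, minus strand: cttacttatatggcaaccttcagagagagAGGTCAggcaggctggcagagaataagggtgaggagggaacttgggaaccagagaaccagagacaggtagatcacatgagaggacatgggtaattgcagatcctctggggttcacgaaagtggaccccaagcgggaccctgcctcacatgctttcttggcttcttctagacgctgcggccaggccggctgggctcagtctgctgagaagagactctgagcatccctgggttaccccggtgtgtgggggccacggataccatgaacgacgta
Ptpn1, chr3:177057483-177057782, plus strand: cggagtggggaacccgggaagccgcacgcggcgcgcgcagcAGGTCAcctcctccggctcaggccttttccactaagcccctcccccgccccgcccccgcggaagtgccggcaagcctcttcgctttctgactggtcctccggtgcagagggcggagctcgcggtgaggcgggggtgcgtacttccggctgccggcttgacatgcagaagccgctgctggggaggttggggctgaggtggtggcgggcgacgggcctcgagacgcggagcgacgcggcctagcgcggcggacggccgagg

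Among the Ras adaptors, Grb2, which links activated receptors to the Ras exchange factor Sos1, had 10.10, 10.09 and 10.39 on the deficient arrays, against 10.52, 10.73 and 10.52 on the adequate arrays. Every deficient array lay below every adequate array, and the log2 change was -0.39 ± 0.16 (SE, unadjusted limma p 0.030, adjusted p 0.344), a fold of 0.761. The other 2 probe sets of Grb2 gave -0.39 ± 0.17 and -0.36 ± 0.28. With deficient array 3 alone the change was -0.20. Sos1 was at 0.17 ± 0.17, with a dimmer probe set at 0.57 ± 0.27. Shc1, another adaptor of the receptor, was at -0.04 ± 0.15.

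Among the enzymes that act on the receptor complex, Ptpn11, the phosphatase SHP2, had 11.21, 11.24 and 11.76 on the deficient arrays, against 11.73, 11.84 and 11.61 on the adequate arrays. Only deficient arrays 1 and 2 were low, and the change was -0.32 ± 0.18 (SE, adjusted p 0.402). A much dimmer Ptpn11 probe set had the opposite sign, 0.47 ± 0.34. With all tested probe sets of a gene averaged, the sign of Ptpn11 turned. Ptpn1, the phosphatase PTP1B that switches the insulin receptor off, was higher on each deficient array, at 8.34, 7.96 and 7.98, than on any adequate array, at 7.94, 7.92 and 7.81. Its difference of 0.20 ± 0.20 (SE) was no larger than its SE. Its other probe set differed by 0.00 ± 0.25. Cbl, a ubiquitin ligase that marks receptors for degradation, had 4 tested probe sets that disagreed, 3 of them between -0.28 and -0.13 and the other at 0.64 ± 0.31.

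PI3K genes showed no shared direction. Pik3ca, the catalytic subunit, had 6 tested probe sets with log2 changes between -0.42 and 0.65, 4 above 0 and 2 below. The brightest had 0.08 ± 0.15. Pik3r1, the main regulatory subunit, was near the cutoff and read 5.77, 6.56 and 7.39 on the deficient arrays and 6.56, 5.73 and 7.54 on the adequate arrays. That is a spread of SD 0.81 and 0.90 (n = 3 each) around a difference of -0.04. Both Pik3r1 and Irs1 were highest on adequate array 3, where markers of hepatocytes and gut epithelium (8 of 12 tested) also stood 1.37 above the adequate mean in log2. Their summed signal was 1956 to 3415 on the deficient arrays and 2404 to 9392 on the adequate arrays. Other members, among them Insr at 7.84 and Rps6kb1 at 8.80, were lowest of all arrays on adequate array 3. The part of hepatocytes and gut epithelium in the readings was not tested. Pik3r2, a further regulatory subunit, was at -0.16 ± 0.19, and its dimmer probe set at -0.75 ± 0.30 (unadjusted limma p 0.032), with deficient arrays 1 and 2 at 6.44 and 6.44, deficient array 3 at 7.30 and the adequate arrays at 7.46, 7.18 and 7.77. That probe set was named after its value was seen.

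Pdpk1, the gene of PDK1, had the largest change relative to its error among the higher members. It read 11.77, 12.23 and 11.44 on the deficient arrays, against 11.45, 11.53 and 10.99 on the adequate arrays. Deficient arrays 1 and 2 exceeded the adequate range and deficient array 3 lay inside it. The log2 change was 0.49 ± 0.22 (SE, adjusted p 0.350), a fold of 1.41. It was 0.28 without deficient array 2, 0.32 without adequate array 3 and 0.12 with deficient array 3 alone. The second Pdpk1 probe set had 0.09 ± 0.19.

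Akt1, the broadly expressed AKT kinase, was lower on every deficient array, at 11.32, 11.33 and 11.61, than on any adequate array, at 11.71, 11.87 and 11.83. Its log2 change was -0.39 ± 0.15 (SE, unadjusted limma p 0.028, adjusted p 0.344), a fold of 0.765. A second Akt1 probe set had the same order without overlap, 8.06, 8.33 and 8.44 on the deficient arrays against 8.60, 8.49 and 8.74 on the adequate arrays. With deficient array 3 alone the change of the brightest was -0.19. A further Akt1 probe set, too dim to test at a mean of 5.73, had the opposite sign, 0.18. Akt2, the kinase most tied to insulin-driven glucose uptake, had 9.46, 9.55 and 9.66 on the deficient arrays and 9.64, 9.69 and 9.64 on the adequate arrays. Its change was -0.10 ± 0.15 (SE), and a difference between the Akt1 and Akt2 changes was not tested. Akt2 probe sets too dim to test went both ways, between -0.17 and 1.37.

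The AKT substrates read as follows. Foxo1, a factor that insulin holds inactive, had 9.40, 9.10 and 9.21 on the deficient arrays, against 8.91, 8.08 and 9.20 on the adequate arrays. The adequate mean was pulled down by adequate array 2, and the change was 0.51 ± 0.27 (SE, adjusted p 0.382). Without adequate array 2 it was 0.18. Foxo1 probe sets too dim to test, at means of 3.51 and 2.69, went opposite ways, 1.86 and -1.63. The latter was lower on every deficient array than on any adequate array. Foxo3, a related factor, was higher on every deficient array, at 11.40, 11.63 and 11.331, against 11.11, 11.23 and 11.325 on the adequate arrays. Deficient array 3 and adequate array 3 were almost level, and the change of 0.23 ± 0.15 was 0.14 without deficient array 2. Tbc1d4, which holds back glucose transporter vesicles until AKT phosphorylates it, was at -0.06 ± 0.17, and its probe set too dim to test at 0.23.

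**Figure D2:**
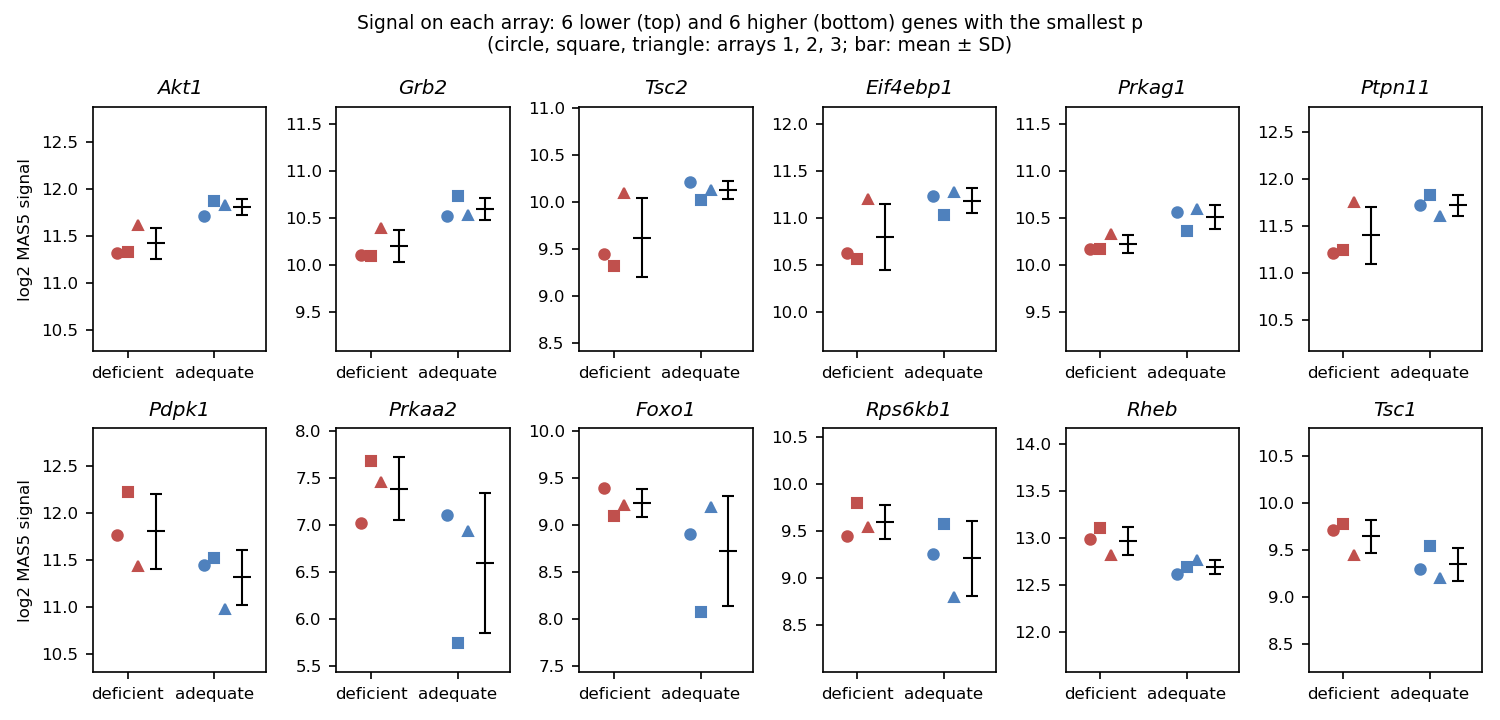
Log2 MAS5 signal (y axis, every panel spanning the same range of log2 units) on the deficient and adequate arrays for the 6 lower and 6 higher member genes with the smallest unadjusted p. Points are arrays and bars are mean ± SD (n = 3 each). Akt1, Grb2, Prkag1 and Rheb do not overlap between groups, whereas the triangle of deficient array 3 lies among the adequate points for Tsc2, Eif4ebp1 and Ptpn11.

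The TSC genes, whose products act as a complex, had changes of opposite sign. Tsc2, the part that inactivates Rheb, read 9.44, 9.31 and 10.10 on the deficient arrays, against 10.21, 10.02 and 10.12 on the adequate arrays. Low values were on deficient arrays 1 and 2, and deficient array 3 lay inside the adequate range. Its log2 change was -0.50 ± 0.21 (SE, unadjusted limma p 0.038, adjusted p 0.344), a fold of 0.706, and with deficient array 3 alone it was -0.02. Tsc1, its stabilising partner, had 9.72, 9.78 and 9.44 on the deficient arrays and 9.30, 9.54 and 9.20 on the adequate arrays. The groups overlapped through deficient array 3, with a change of 0.30 ± 0.17 (adjusted p 0.414). Rheb, the GTPase that activates mTOR complex 1, was higher on every deficient array, at 12.99, 13.11 and 12.82, than on any adequate array, at 12.62, 12.70 and 12.77. The Rheb change was 0.28 ± 0.16 (adjusted p 0.406), 0.12 with deficient array 3 alone and 0.06 after quantile normalization.

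The genes of the mTOR complexes had log2 changes between -0.30 and 0.25. Mtor, the kinase, had 9.48, 9.52 and 9.12 on the deficient arrays and 9.36, 9.32 and 9.16 on the adequate arrays. Deficient arrays 1 and 2 were above the adequate range and deficient array 3 below it, with a change of 0.09 ± 0.18 (SE). Rptor, which defines complex 1, had 8.64, 7.996 and 8.47 on the deficient arrays, against 8.76, 8.73 and 8.53 on the adequate arrays. Only deficient array 2 was far out, and the change was -0.30 ± 0.21 (adjusted p 0.485), or -0.12 without that array. Rictor, which defines complex 2, was at 0.16 ± 0.16, and Mlst8, a subunit of both, at -0.02 ± 0.19. A Rictor probe set too dim to test, at a mean of 4.17, was at -1.18. Deptor, an inhibitor of both complexes, read 9.39, 9.53 and 9.36 on the deficient arrays, against 9.44, 8.97 and 9.11 on the adequate arrays. Adequate array 1 lay among the deficient arrays, and the change was 0.25 ± 0.18 (adjusted p 0.485). It was 0.39 without adequate array 1 and 0.15 without adequate array 2. A dim Deptor probe set, not tested, was at -0.20.

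Downstream of mTOR, Eif4ebp1, which blocks the cap-binding protein until mTOR phosphorylates it, had 10.62, 10.56 and 11.19 on the deficient arrays, against 11.23, 11.03 and 11.27 on the adequate arrays. Deficient arrays 1 and 2 were low and deficient array 3 was not. The log2 change was -0.39 ± 0.19 (SE, adjusted p 0.364), and 0.01 with deficient array 3 alone. Eif4e, the cap-binding protein, was at -0.18 ± 0.17, with deficient array 1 at 11.09 and every other array between 11.47 and 11.68. Its 2 dim probe sets, not tested, ran the other way, at 0.30 and 0.98. Each was higher on every deficient array than on any adequate array. Rps6kb1, the S6 kinase, read 9.46, 9.80 and 9.55 on the deficient arrays, against 9.26, 9.58 and 8.80 on the adequate arrays. Its change was 0.39 ± 0.22 (adjusted p 0.397), and that of its second probe set 0.17 ± 0.21. Adequate array 3 was the lowest array, and without it the change was 0.18.

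AMPK is built of a catalytic alpha, a beta and a gamma subunit. Prkaa1, an alpha subunit, had 10.21, 10.49 and 10.20 on the deficient arrays and 10.29, 10.41 and 10.08 on the adequate arrays. The groups overlapped, although deficient array 2 was the highest and adequate array 3 the lowest, and the change was 0.04 ± 0.16 (SE). Prkaa2, the other alpha subunit, had the largest change of the 33 genes and a large error, 0.79 ± 0.37 (adjusted p 0.354). It read 7.02, 7.68 and 7.46 on the deficient arrays, against 7.11, 5.74 and 6.94 on the adequate arrays. Adequate array 2 was the outlying value, and without it the change was 0.37. The gamma subunit Prkag1 was lower on every deficient array, at 10.17, 10.17 and 10.33, against 10.56, 10.37 and 10.60, with a change of -0.29 ± 0.15 (adjusted p 0.377). Prkab1, a beta subunit, was at -0.17 ± 0.17. The brightest Stk11 probe set had 4.91, 4.67 and 5.28 on the deficient arrays and 2.31, 5.28 and 4.44 on the adequate arrays, below the cutoff on every array, and is given without a fold.

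Counted over the list, the groups did not overlap for 6 of the 33 genes. Akt1, Grb2 and Prkag1 were lower (9.09%), where 13.3% of all tested genes were lower without overlap. Rheb, Foxo3 and Ptpn1 were higher (9.09%), where 4.97% were. Among the 50 tested probe sets, 6 were lower and 4 higher without overlap, 12.0% and 8%, where 10.8% and 6.55% of all tested probe sets were. Of the 10 genes with more than 1 tested probe set, 7 had all of them on the same side of 0, and Cbl, Pik3ca and Ptpn11 did not.

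**Figure D3:**
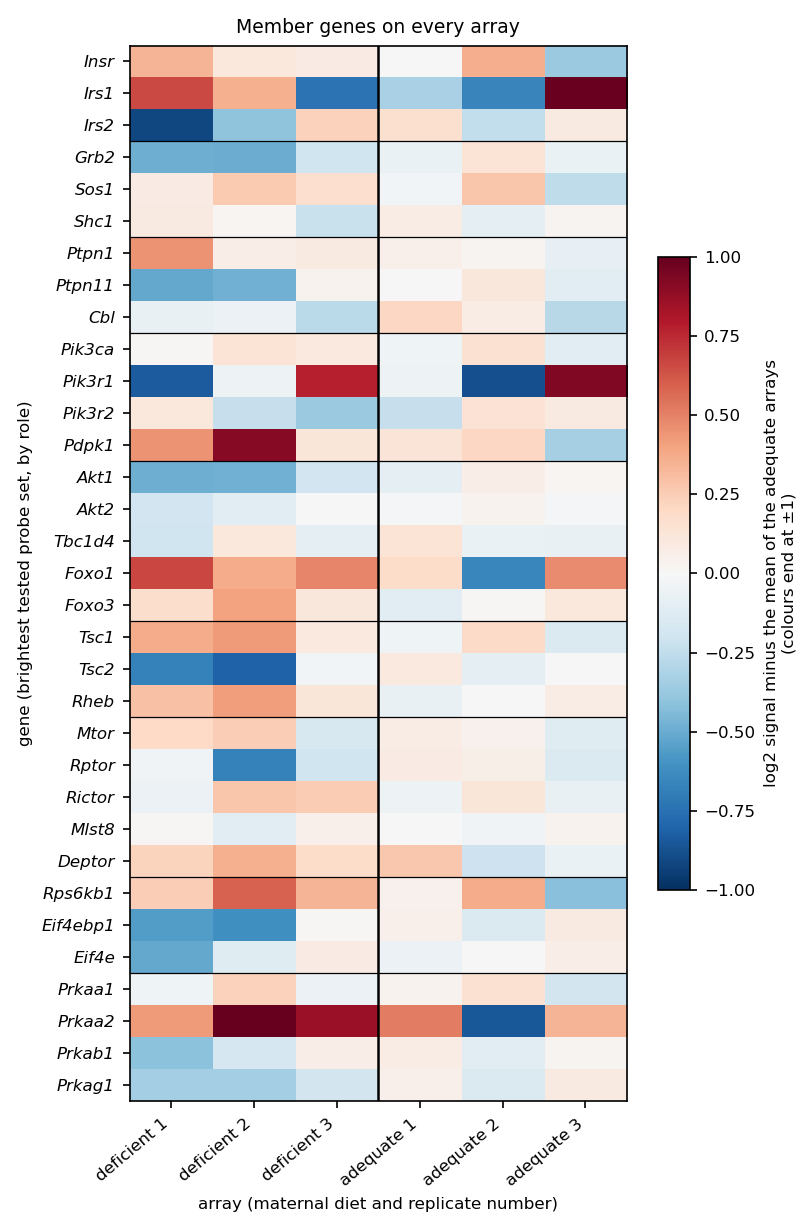
Log2 signal minus the mean of the adequate arrays (colour) for the 33 member genes (rows, by role) on each array (columns). Deficient arrays 1 and 2 share strong colours in Akt1, Grb2, Tsc2, Ptpn11, Eif4ebp1 and Pdpk1, and deficient array 3 is paler there.

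With deficient array 3 left out, 8 member genes passed limma's adjusted threshold. Tsc2 (log2 change -0.74 ± 0.14 SE, adjusted p 0.00819), Eif4ebp1 (-0.59 ± 0.13, 0.0130), Akt1 (-0.48 ± 0.11, 0.0173), Ptpn11 (-0.50 ± 0.12, 0.0187), Grb2 (-0.49 ± 0.13, 0.0293) and Irs2 (-0.66 ± 0.20, 0.0493) were lower. Pdpk1 (0.68 ± 0.19, 0.0337) and Rheb (0.36 ± 0.10, 0.0414) were higher. These are 18.2% lower and 6.06% higher of the 33, where 13.2% and 8.83% of all tested genes passed. In that fit the deficient group is the 2 arrays with high hybridisation controls and beta-actin ratios. With deficient array 3 alone against the adequate arrays, 0 of 33 passed even at limma's unadjusted p under 0.05, where 4.94% of all tested genes were lower and 1.94% higher, and 11 member genes changed sign. In that fit the lone array is assumed to vary like the others.

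The members also differed by gene length. The 8 member genes that span less than 33.0 kb in the GRCr8 gene table, which supplied a span for all 33, were all lower in the deficient group, with Mlst8, at -0.02, above 0 after quantile normalization: Mlst8, Pik3r2, Prkab1, Shc1, Eif4ebp1, Prkag1, Akt1 and Irs2. With deficient array 3 alone 4 of the 8 were above 0, Irs2 at 0.23, Prkab1 at 0.07, Mlst8 at 0.05 and Eif4ebp1 at 0.01. Of the 25 longer ones, 16 were higher and 9 lower. Over all tested genes 65.9% of the shorter and 53.3% of the longer were lower. Spearman's rho between span and log2 change was 0.38 across the 33 members and 0.17 across 10561 tested genes, which share arrays and are not independent. With deficient array 3 alone these were 0.25 and 0.01. Set against the adequate mean, the 8 short members had medians of -0.38, -0.29 and -0.08 on deficient arrays 1, 2 and 3. With each array's trend over gene span removed, Mlst8 and Shc1 changed sign, Akt1 was at -0.29 (unadjusted limma p 0.067), and Grb2, a gene of 67.8 kb, at -0.38 (0.028). The split at this length was chosen after the values were seen.

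**Figure D4:**
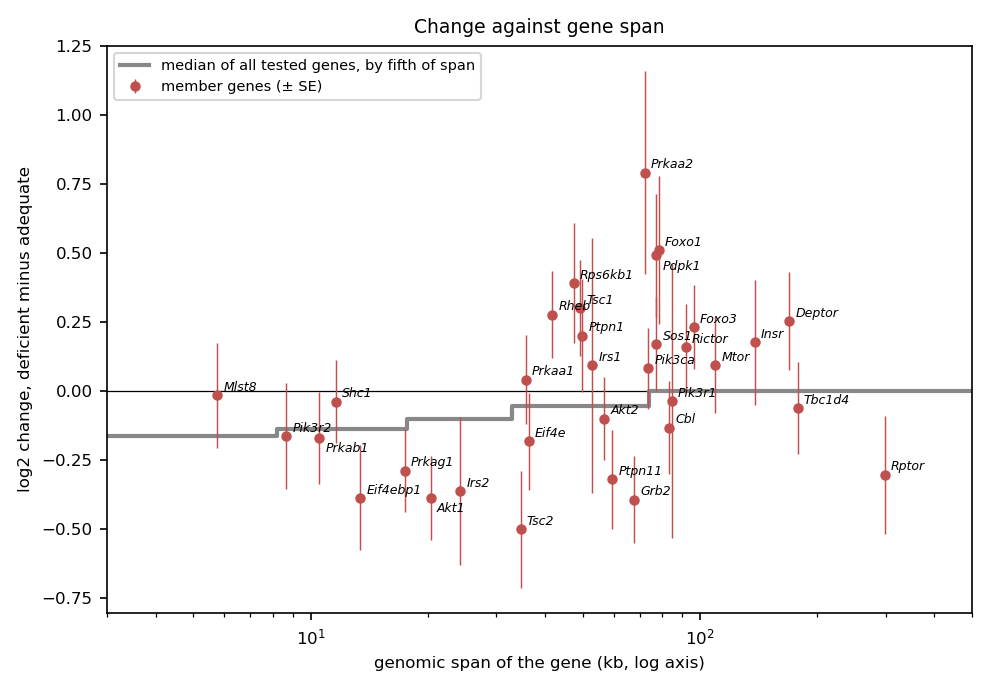
Log2 change (deficient minus adequate, y axis, ± SE) against the genomic span of the gene in kb (log x axis) for the 33 member genes. The grey steps are the median of all tested genes in 5 equal bins of span, from -0.16 for the shortest to 0.00 for the longest, and all 8 members below 33.0 kb lie under 0 (Mlst8 at -0.02, above 0 after quantile normalization, and 4 of the 8 above 0 with deficient array 3 alone).

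Other genes of the pathway gave 0 that passed the adjusted threshold, in each of 5 lists. The list of FOXO targets is not apart from the members, because it includes Insr, Irs2 and Rictor. It also shares Sesn3 with the nutrient sensing list. The counts below stand against a background in which 60.8% of all tested genes had a lower mean, 10.1% were lower and 4.75% higher at an unadjusted p under 0.05, and the median change was -0.09. In insulin, PI3K and AKT signalling, 15 of 22 tested genes were lower, 6 of them at an unadjusted p under 0.05, and 7 higher, 1 of them so, with a median log2 change of -0.23. The list's mean deviation from the adequate mean was -0.29, -0.31 and -0.07 on deficient arrays 1, 2 and 3, so the lower values lay mostly on the arrays that stand apart. Gys1, the muscle-type glycogen synthase, was at -0.99 ± 0.24 (SE), Inppl1, the lipid phosphatase SHIP2, at -0.60 ± 0.17, Trip10, an adaptor in glucose transport, at -0.59 ± 0.17, and Ptpn2, a phosphatase of the receptor, at 0.40 ± 0.16. In nutrient sensing and translation control, 26 of 34 were lower (4 at that threshold) and 8 higher (2), with a median of -0.20 and mean deviations of -0.22, -0.21 and -0.08 on those arrays. Larp1, which binds mRNAs of the translation machinery, was at 0.67 ± 0.19, and the ribosomal protein Rps6, a target of S6 kinase, at 0.51 ± 0.22. Ddit4, a stress-induced inhibitor of mTOR complex 1, was at -0.61 ± 0.19, and the arginine sensor Castor1 at -0.61 ± 0.21.

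AMPK partners had 10 of 14 lower (2 at an unadjusted p under 0.05) and 4 higher (0), with a median of -0.19 and mean deviations of -0.18, -0.21 and -0.09 on deficient arrays 1, 2 and 3. The gamma subunit Prkag2 was at -0.65 ± 0.23 (SE), the phosphatase subunit Ppp2r5c at -0.37 ± 0.16, the AMPK substrate Acaca, acetyl-CoA carboxylase, at -0.32 ± 0.21 and Mlycd, malonyl-CoA decarboxylase, at 0.27 ± 0.19. The Ras and ERK branch had 7 of 12 lower (0) and 5 higher (1), a median of -0.03, and the Ras inactivator Rasa1 at 0.46 ± 0.21, Spry4 at -0.40 ± 0.21, Crk at 0.32 ± 0.19 and Araf at 0.28 ± 0.18. FOXO targets had 10 of 17 lower (0) and 7 higher (1), with a median of -0.05. Among them the cell cycle inhibitor Cdkn1b was at 0.50 ± 0.21, Sesn3 at -0.63 ± 0.29 and Sod2 at -0.53 ± 0.29.

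The tissue label was checked against markers. Of 16 adipocyte markers with a probe set, 8 were bright enough to test, among them Fabp4, Lpl, Cd36, Slc2a4 and Cebpa. Adipoq, Lep, Plin1, Plin4, Cidec, Cidea, Pparg and Ucp1 were under the cutoff. The summed signal of the list was 4791 to 8046 on the deficient arrays and 6460 to 6765 on the adequate arrays. Lymphocyte markers (8 of 12 tested, all lower) had mean log2 deviations from the adequate group of -0.79, -1.19 and -0.22 on deficient arrays 1, 2 and 3, with summed signals of 3410 to 5153 against 4302 to 7179. Macrophage markers (13 of 14 tested, 11 lower) averaged -0.56, -0.45 and -0.01, with sums of 12518 to 17443 against 16223 to 19639. Mast cell markers (6 of 7 tested, 6 lower) averaged -1.03, -0.69 and 0.04, with sums of 4380 to 7339 against 5525 to 7843. Smooth muscle markers (11 of 11 tested, 8 higher) averaged 0.39, 0.44 and 0.15, with sums of 117305 to 188112 against 94074 to 114356. By mean deviation, the lymphocyte, macrophage and mast cell lists thus split the deficient arrays as Tsc2, Eif4ebp1 and Ptpn11 did. The smooth muscle list did not, because deficient array 3, at 0.15, was also above each adequate array (-0.13, 0.01 and 0.12). The part of these lists in the members' readings was not tested.

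The other marker lists had median log2 changes of -0.06 (adipose progenitors and fibroblasts, 11 tested), -0.09 (endothelium, 11), -0.25 (mesothelium, 6), -0.54 (hepatocytes and gut epithelium, 8), -0.71 (pancreas, 2), -0.31 (striated muscle, 5) and -0.12 (red cell precursors, 4). The median of the adipocyte list was -0.12.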

How the data were processed

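RNA was measured on 6 Affymetrix Rat Genome 230 2.0 arrays, 3 per diet of the dams, with groups and replicate numbers taken from the titles. The deposited values are linear intensity signals made by the authors. Affymetrix Expression Console and MAS5 are listed in the submitters' processing notes, with no version or role. The 2% trimmed mean was 500.1 or 500.2 on each array, so differences in total RNA are removed. Signals were log2 transformed without an offset. The 57 control probe sets and those under the 40th percentile of mean log2 signal (6.46 in log2, or 88.2 in signal) were set aside, and 18625 probe sets remained. Probe sets were named from GEO's platform annotation: 20826 have 1 symbol, 436 several and 9780 none. Of those with 1 symbol, control probe sets included, 20764 matched the GRCr8 gene table by Entrez identifier, with 0 symbols changed.

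Deficient minus adequate was fitted with limma 3.58.1 in R 4.3.3 (lmFit, eBayes with a variance trend, two-sided, Benjamini-Hochberg over all tested probe sets, threshold 0.05), after tests on simulated data. The brightest tested probe set stands for a gene. No fold is given where a group's mean lies under 6.46. Full values per array are given for the 6 higher and 6 lower members with the smallest p and 14 further fixed members, 4 of them in both sets of names, and up to 4 genes of each pathway list. The members, gene lists and rules were chosen with earlier results of these data known. Ptpn1, Foxo3 and the second probe sets whose array values are given were chosen after their values were seen. Alternatives were other normalizations, filters, offset, variance models, array weights, a replicate block, covariates for hybridisation and RNA quality, leaving arrays out, and, added after seeing the data, removal of the trend with gene span. Pearson's r between arrays was 0.931 to 0.975, and 0 columns were identical. Figures used matplotlib 3.10.9.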

Additional observations from a re-analysis of the deposited data

How the results depend on the processing

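The adjusted threshold was passed by 0 member probe sets and by 0 of all tested probe sets. This held under every alternative run except array weights (8 and 3462, with a weight of 0.262 on deficient array 3) and leaving out deficient array 3 (10 and 3614). Leaving out any other single array gave 0 and 0. At limma's unadjusted p under 0.05 there were 2647 of all 18625 tested probe sets in the main fit. With array weights there were 6678, with the replicate block 3235 and without a variance trend 2410. The beta-actin ratio as a covariate gave 1314, the hybridisation controls 826, and leaving out single arrays 906 to 6572. The member counts at that threshold are to be read beside these, because the whole table moved as well. The 3 member genes lower at that threshold became 7 with array weights and 0 without a variance trend, with the hybridisation controls or beta-actin ratio as a covariate, and in the fit of deficient array 3 alone. Leaving out single arrays gave 0 to 8, and each array but deficient array 3 took the count to 0. The 0 higher genes became 1 after quantile normalization, median centring, robust eBayes or removal of the span trend, 2 with the beta-actin ratio or the replicate block, 5 with array weights, and 0 to 4 without single arrays. The median change of -0.02 was 0.031 after quantile normalization, -0.050 with the filter at the 60th percentile (28 of 33 genes left), 0.067 with deficient array 3 alone, 0.045 with the hybridisation covariate, 0.041 when probe sets were averaged per gene, and 0.10 with the span trend removed. It was -0.085 to 0.051 without single arrays. The cause of these shifts was not tested. Akt1, Grb2 and Tsc2 were below 0 in all 20 alternatives (-0.48 to -0.19, -0.49 to -0.20 and -0.74 to -0.02). Many other members also kept their sign in all 20, among them Cbl (-0.27 to -0.01), Pik3ca (0.03 to 0.16) and Sos1 (0.04 to 0.37). The alternatives reuse the same arrays, so a kept sign is not separate support. Signs changed for 11 of 33 genes with deficient array 3 alone, 8 with the hybridisation covariate and 2 (Tbc1d4, Mlst8) after quantile normalization. In the fit with the replicate block, 4 member genes were lower and 2 higher at the unadjusted threshold, and 0 probe sets passed after adjustment. The labels do not say that same-numbered arrays are pairs, and the main fit did not pair them. Deviations from the group means correlated at 0.11, 0.15 and 0.01 within same-numbered arrays and at -0.14 to 0.05 across numbers. Each array but adequate array 3 correlated best with its own number, and these values do not settle whether the numbers are pairs. Low signal over background limits Irs1, Pik3r1 and Prkaa2.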
